A study of Mus musculus with 15 samples.

Results

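The genes described here make cholesterol and fatty acids or control how much of them is made. They are 30 genes taken by symbol from a table of 23284, and all 30 passed the filter on low values that left 11781 genes for testing. Expression was measured by RNA sequencing of kidneys from wild-type mice, 5 samples per group, taken at a labelled time of 2 h. The groups had received vehicle, L-alanine (L-ala) or its mirror-image form D-alanine (D-ala); the labels name no strain, age, sex, dose, route or vehicle, so whether the doses of the 2 amino acids match cannot be told. Levels are FPKM, fragments scaled for transcript length and library size, which can be set side by side between genes, and are given as mean ± SD over the 5 samples of a group. A gene was said to rise or fall only at a limma adjusted p under 0.05 over all genes tested, and differences are log2 fold changes of FPKM + 1 with their standard error (SE). The labels do not say whether samples of a group came from separate animals, so the p-values measure only how far these samples differ, and that spread may be technical.

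Cholesterol is built from acetyl-CoA through mevalonate, isoprenoids, squalene and lanosterol. Fatty acids are built from cytosolic acetyl-CoA, which ATP citrate lyase makes from citrate. Transcription of both pathways is driven by the SREBP factors (Srebf1 and Srebf2). Their release from the endoplasmic reticulum needs the escort protein Scap and is held back by Insig1 and Insig2 when sterols are plentiful. SREBP binds sterol regulatory elements and usually acts together with NF-Y, which binds CCAAT. The kidney makes some of its own sterol and has little fat inside its tubules, but fat tissue rich in lipid synthesis enzymes surrounds it.

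The upstream sequences below belong to 4 genes on which the results turn, and show the letters by which SREBP and NF-Y sites are known. RefSeq promoter windows on GRCm38.p6, 250 bases before to 50 after a start, were matched by symbol for 24 of the 30 genes; Fdps, Fdft1, Sqle, Stard4, Scd1 and Scd2 had no match. Each line gives the 250 bases before the first listed start, 5′ to 3′ on the strand of the gene. Capitals mark exact matches on either strand to TCACNCCAC (sterol regulatory element letters), CCAAT (read as ATTGG on the other strand) or CACGTG (an E-box). The regions are chr13:119690101-119690350 on the plus strand for Hmgcs1, chr1:169969206-169969455 on the minus strand for Hsd17b7, chrX:8193513-8193762 on the minus strand for Ebp and chr11:100528001-100528250 on the minus strand for Acly.
Hmgcs1: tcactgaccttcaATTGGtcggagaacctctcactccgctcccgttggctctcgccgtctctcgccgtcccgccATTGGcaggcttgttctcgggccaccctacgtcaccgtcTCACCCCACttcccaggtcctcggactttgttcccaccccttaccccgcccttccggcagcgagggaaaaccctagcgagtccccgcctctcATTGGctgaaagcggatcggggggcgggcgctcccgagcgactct
Hsd17b7: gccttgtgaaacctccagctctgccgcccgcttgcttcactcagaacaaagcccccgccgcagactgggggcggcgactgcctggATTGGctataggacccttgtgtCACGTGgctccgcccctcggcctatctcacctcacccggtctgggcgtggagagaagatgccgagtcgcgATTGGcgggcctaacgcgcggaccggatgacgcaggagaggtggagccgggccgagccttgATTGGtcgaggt
Ebp: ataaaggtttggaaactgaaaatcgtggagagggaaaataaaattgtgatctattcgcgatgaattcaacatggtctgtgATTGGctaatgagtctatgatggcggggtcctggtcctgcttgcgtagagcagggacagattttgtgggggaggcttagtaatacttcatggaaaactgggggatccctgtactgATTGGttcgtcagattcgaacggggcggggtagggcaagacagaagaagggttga
Acly: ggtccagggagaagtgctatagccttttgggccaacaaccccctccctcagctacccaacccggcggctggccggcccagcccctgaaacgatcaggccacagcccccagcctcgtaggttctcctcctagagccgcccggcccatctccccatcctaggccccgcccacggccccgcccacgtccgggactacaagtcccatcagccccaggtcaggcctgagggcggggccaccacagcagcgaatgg

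Of the 24 genes with a window, 19 (79.2%) held CCAAT, against 41.1% of the 27025 genes in the RefSeq table. The TCACNCCAC letters were in 1 of the 24, Hmgcs1, where the match TCACCCCAC begins 137 bases before the start, and in 1.44% of all genes. CACGTG was in 5 of the 24 (20.8%, against 8.09% of all genes): Hsd17b7, Sc5d, Dhcr7, Insig1 and Scap. The 3 motifs share no overlapping letters in the lines above. Acly had no match in the bases shown, and its CCAAT begins 37 bases after the start. The RefSeq genes were not limited to those tested here, and a gene counted if any of its windows matched. The shares therefore do not compare the 24 with other genes expressed in kidney. Such matches describe letters in a window and do not show binding.

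In vehicle kidneys the 30 genes spanned a range of levels from 1.66 ± 0.397 FPKM for Idi1, an isomerase of isoprenoid synthesis, to 228 ± 15.8 FPKM for Hmgcs1, which makes HMG-CoA for the mevalonate pathway. Scd1, the stearoyl-CoA desaturase, came next by its mean at 137 ± 69.2 FPKM, but with a spread so wide that its samples overlapped those of Cyp51, the lanosterol demethylase, at 84.2 ± 6.20 FPKM. At the low end, Idi1 and Acaca (acetyl-CoA carboxylase, 1.70 ± 0.600 FPKM) did not differ beyond their spread. Neighbouring enzymes were far apart in level: Hmgcs1 stood at 228 FPKM while Mvk, the mevalonate kinase, was at 8.42 ± 1.02 FPKM. Most cholesterol genes varied little between vehicle samples, with a coefficient of variation of 4.71% for Ebp and 6.06% for Sqle, whereas that of Fasn was 62.9% and that of Scd1 50.3%.

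**Figure D1:**
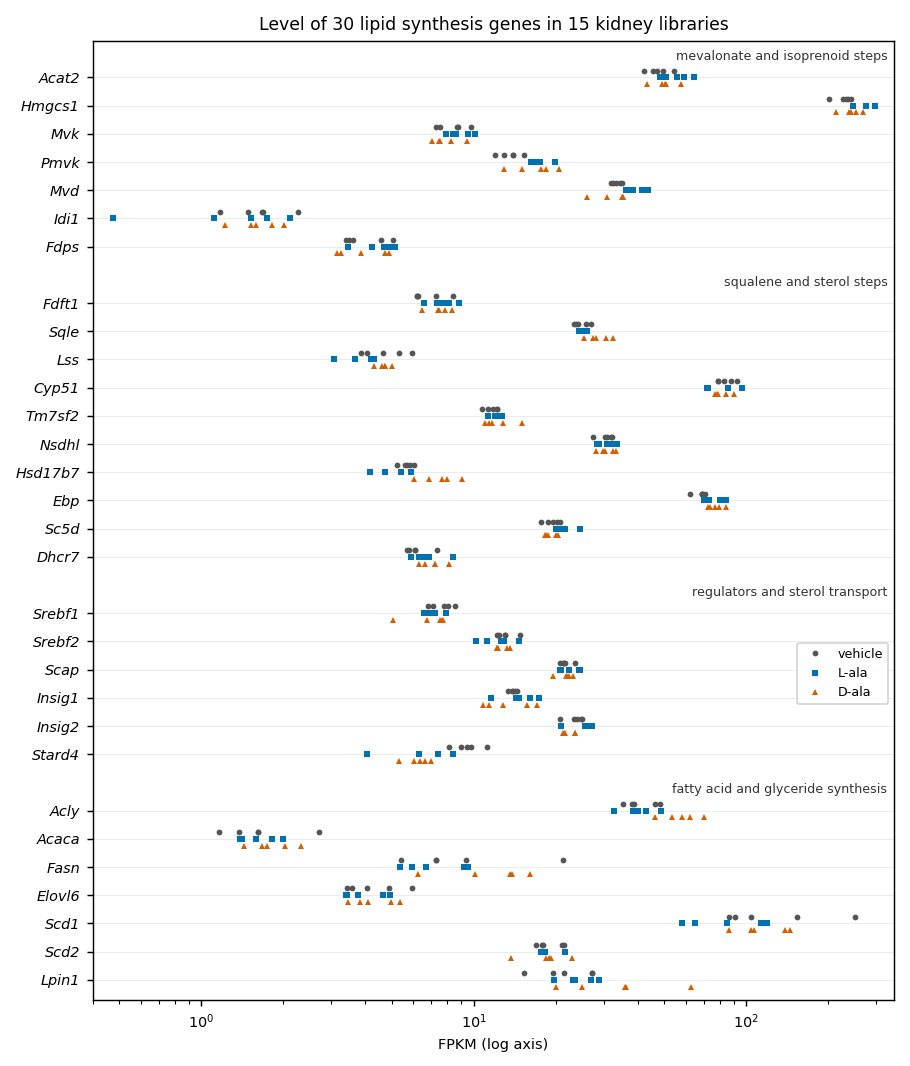
FPKM of the 30 genes in each of the 15 libraries on a log axis, ordered by their place in the pathway; circles are vehicle, squares L-ala and triangles D-ala. Hmgcs1 lies above 200 FPKM in every library, and Fasn and Scd1 each have 1 vehicle library far to the right, at 21.3 and 252 FPKM.

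The samples carried kidney transcripts as labelled: all 10 proximal tubule markers were tested, and their mean log2 level lay between 8.72 and 8.99 in every library. They were not level across groups: against vehicle 4 of the 10 rose under L-ala (background 6.48% of all genes tested) and 3 under D-ala (background 6.53%). By limma 0 fell (1 lower under L-ala and 2 under D-ala at an unadjusted p under 0.05). Adrenal markers summed to at most 1.08 FPKM, with Cyp11b1 and Cyp11b2 at 0 throughout. Fat markers varied within groups. Of 13 adipocyte markers 10 were tested and 0 passed limma's test in any comparison (1 at an unadjusted p under 0.05, higher with D-ala than with L-ala); the 13 summed to 325 to 735 FPKM under vehicle, 402 to 596 under L-ala and 329 to 852 under D-ala, much of it from Lpl and Fabp4. Below, the fat marker level of a library is the mean log2(FPKM + 1) of the 13, in which Lpl and Fabp4 weigh no more than the others. Its group mean was highest under D-ala, at 3.18 ± 1.05, against 2.55 ± 0.823 under vehicle and 2.52 ± 0.411 under L-ala. It ran from 1.73 to 3.83 under vehicle and from 1.91 to 2.93 under L-ala. Under D-ala it ran from 1.42 in replicate 4 to 4.21 in replicate 2. Adipoq, a hormone of fat cells, was at 16.1 FPKM in vehicle replicate 4, at 22.1 in D-ala replicate 2 and at 0 in D-ala replicate 4, where Plin1 and Cfd were also at 0. L-ala replicate 5 stood apart, with a mean correlation of -0.12 with the rest of its group on gene-centred values; the same genes of the 30 passed in each comparison without it. In whole tissue, more cells of a type and more RNA per cell cannot be told apart.

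Against vehicle, D-ala raised Acly, Hsd17b7 and Sqle and lowered Stard4, and the other 26 genes did not pass. Rises made up 10% of the 30 genes (background 6.53% of all genes tested) and falls 3.33% (background 4.92%), both near the background. The median difference was 0.001 on the log2 scale over the 30 genes and 0.0011 over all genes, with 15 of the 30 above 0 and 15 below. Groups did not overlap for Hsd17b7 and Ebp on the higher side (background 6.12%) and for Stard4 on the lower side (background 4.76%).

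**Figure D2:**
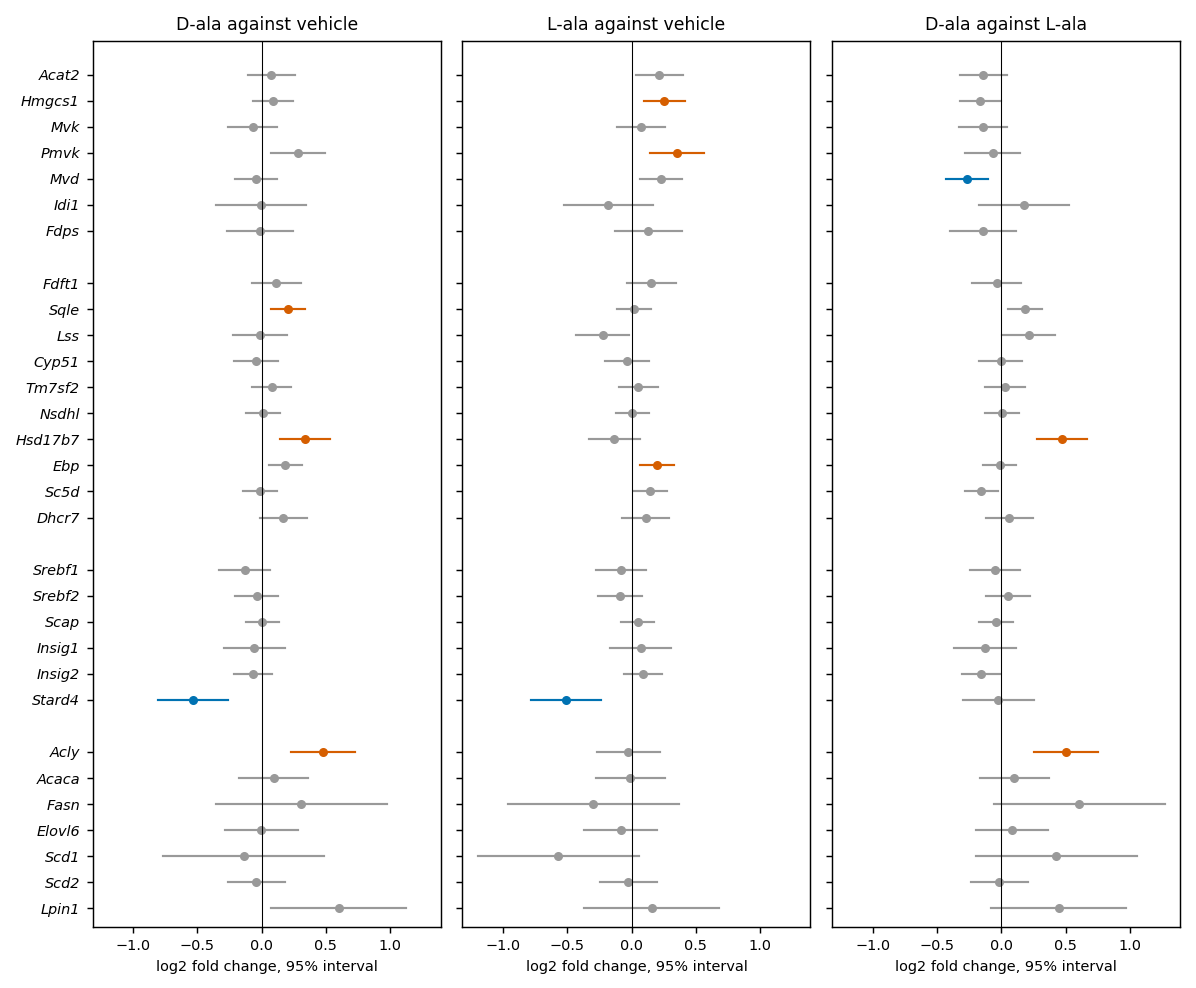
Log2 fold change of each of the 30 genes in the 3 comparisons, with 95% intervals; orange marks genes that rose, blue genes that fell, and grey genes that did not pass. Stard4 is to the left of 0 against vehicle under both amino acids, and Acly and Hsd17b7 are to the right of 0 under D-ala against either group.

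Acly, the ATP citrate lyase that supplies cytosolic acetyl-CoA to both pathways (GRCm38 chromosome 11, 100476353 to 100528000, minus strand), had 38.1, 38.6, 46.2, 48.2 and 35.2 FPKM under vehicle. Under D-ala it had 70.1, 62.1, 58.1, 53.4 and 46.5 FPKM. The D-ala samples lay above all vehicle samples except for D-ala replicate 5, which fell among them. The rise was 0.48 (SE 0.12, adjusted p = 0.0142), from 41.3 ± 5.62 to 58.0 ± 8.92 FPKM (SD, n = 5). It passed under all 25 alternative settings, with adjusted p from 0.0077 to 0.0412. In D-ala replicate 4 Acly was at 53.4 FPKM. In that library Adipoq, Plin1 and Cfd were at 0, while Fabp4 was at 70.0 and Lpl at 250 FPKM. How much Acly RNA came from fat cells was not tested. With the fat marker level as a covariate the rise was 0.41 (adjusted p = 0.0394).

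Hsd17b7, a ketosteroid reductase that acts in the removal of the sterol C4 methyl groups (chromosome 1, 169949535 to 169969241, minus strand), had 5.715, 5.835, 5.23, 6.052 and 5.621 FPKM under vehicle and 8.003, 9.036, 7.642, 6.053 and 6.868 FPKM under D-ala. The groups came within rounding of each other, vehicle replicate 4 at 6.052 and D-ala replicate 4 at 6.053 FPKM, and the other D-ala samples were well above. The rise of 0.34 (SE 0.09, adjusted p = 0.0268) was lost when vehicle replicate 3 or any of D-ala replicates 1 to 3 was left out (adjusted p 0.0541 to 0.0689). With the adipocyte marker level as a covariate it was 0.28 (adjusted p = 0.0698).

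Sqle, the squalene epoxidase (chromosome 15, 59315077 to 59331192, plus strand), went from 25.9, 24.1, 26.9, 23.9 and 23.4 FPKM under vehicle to 27.5, 32.5, 28.1, 30.6 and 25.3 FPKM under D-ala, with D-ala replicate 5 inside the vehicle range. Its rise was small, 0.20 (SE 0.06, adjusted p = 0.0452), and passed in 8 of 25 alternative settings. It was lost when any of vehicle replicates 1, 2, 4 and 5, of L-ala replicates 1 to 3 or of D-ala replicates 1 to 4 was left out (adjusted p 0.0501 to 0.111).

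Stard4, a carrier that moves cholesterol between membranes inside the cell, was the only member that fell against vehicle under either amino acid. It had 9.03, 11.2, 9.77, 9.48 and 8.11 FPKM under vehicle, 6.63, 5.31, 6.96, 6.33 and 6.04 under D-ala, and 6.32, 7.39, 6.31, 4.07 and 8.42 under L-ala. All D-ala samples were below all vehicle samples, and L-ala replicate 5 alone overlapped them. The fall under D-ala was -0.54 (SE 0.13, adjusted p = 0.0137) and passed in 24 of 25 alternative settings, the exception being the fit without vehicle replicate 4 and D-ala replicate 2 together (adjusted p = 0.0788). Under L-ala it was -0.51 (SE 0.13, adjusted p = 0.0241), lost without vehicle replicate 2 (adjusted p = 0.0576) or 4 (0.0647). These 2 comparisons share the vehicle samples. Some markers of other cells also fell: of 7 tested macrophage markers 3 fell under D-ala and 1 under L-ala, and of 6 endothelial markers 2 and 4 fell. Over all genes tested 4.92% fell under D-ala and 4.53% under L-ala. Macrophage markers summed to 150 to 263 FPKM under vehicle, 109 to 170 under D-ala and 125 to 211 under L-ala, and endothelial markers to 83.1 to 130, 74.9 to 96.8 and 61.2 to 122 in the same order. No macrophage or endothelial marker was at 0 in any library, and their part in the fall of Stard4 was not tested.

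**Figure D3:**
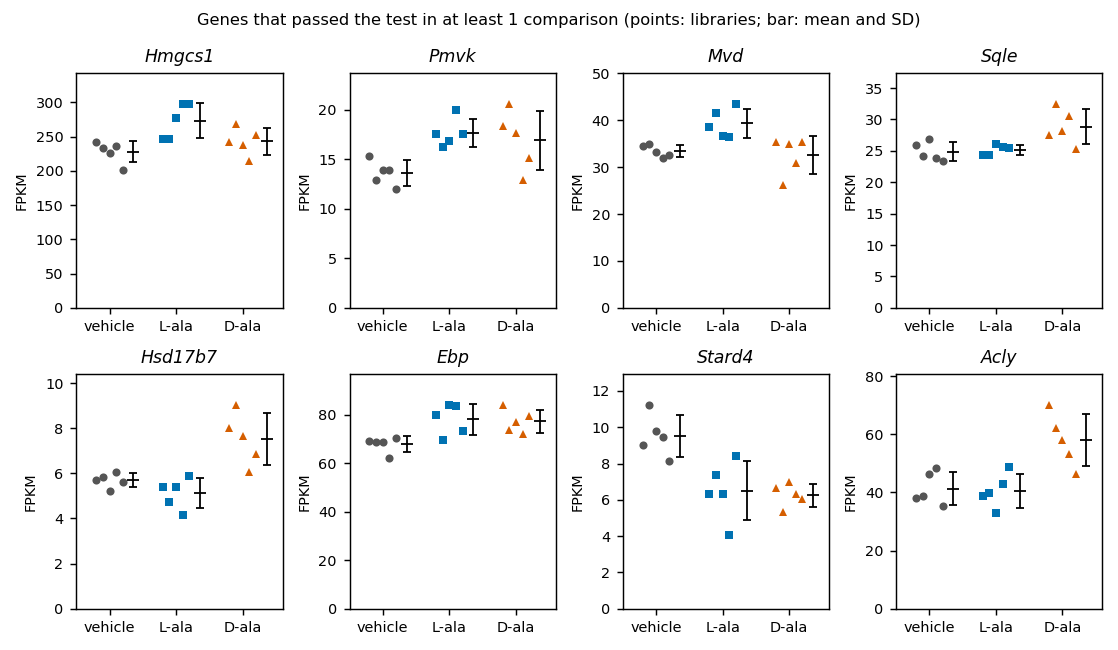
FPKM of the 8 genes that passed in at least 1 comparison; points are libraries and bars the mean and SD of 5, on axes that start at 0. Acly and Hsd17b7 are highest under D-ala, Stard4 is highest under vehicle, and Hmgcs1, Pmvk, Ebp and Mvd are highest under L-ala by their means.

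The regulators of the pathway did not pass under D-ala. Srebf2, the factor that mainly drives cholesterol genes, went from 13.1 ± 1.01 FPKM in vehicle to 12.7 ± 0.661 FPKM in D-ala samples (-0.04, 95% interval -0.21 to 0.13). Srebf1, which mainly drives fatty acid genes, was at 7.66 ± 0.713 and 6.94 ± 1.12 FPKM (-0.13, interval -0.33 to 0.06). Scap was at 0.00 with an interval of -0.12 to 0.13, Insig1 at -0.06 (-0.30 to 0.18) and Insig2 at -0.07 (-0.22 to 0.08). Each interval includes 0 and none reaches a 2-fold change in either direction. In the same group only Stard4 had an unadjusted p under 0.05.

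Along the cholesterol chain, 0 of 7 genes of the mevalonate and isoprenoid steps passed limma's test under D-ala (1 at an unadjusted p under 0.05), with differences from -0.07 for Mvk to 0.28 for Pmvk. Pmvk, the phosphomevalonate kinase, passed only without D-ala replicate 4 (adjusted p = 0.0135, against 0.0782 with all samples). Of 10 genes of the squalene and sterol steps, 2 rose, Hsd17b7 and Sqle, and 8 did not pass (background 6.53% of all genes tested higher). Both calls were lost in several alternative settings, as given above. Ebp, the sterol isomerase, went from 62.3 to 70.5 FPKM across vehicle samples to 72.3 to 84.1 FPKM across D-ala samples without overlap, but missed the threshold (0.18, SE 0.06, adjusted p = 0.0628) and passed in 2 of 25 alternative settings. Cyp51 (-0.04, interval -0.21 to 0.13) and Nsdhl, a sterol dehydrogenase (0.01, interval -0.12 to 0.14), differed little.

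Against vehicle, L-ala raised Hmgcs1, Pmvk and Ebp and lowered Stard4, with 26 genes not passing. The share of rises was 10% (background 6.48%) and that of falls 3.33% (background 4.53%). The median over the 30 genes was 0.03, and 0.01 over all genes. In the mevalonate and isoprenoid steps 2 of 7 rose, with a median of 0.22. In the squalene and sterol steps 1 of 10 rose, and in the fatty acid and glyceride steps 0 of 7 by limma, with 0 also at an unadjusted p under 0.05. Over all genes tested 763 rose and 534 fell, but 234 rose and 341 fell after quantile normalization. Under D-ala the same step changed 769 and 580 to 740 and 836. Median-of-ratios scaling gave 764 and 531 under L-ala. FPKM summed over all genes ran from 631008 to 692199 under vehicle, 695096 to 843908 under L-ala and 668770 to 713326 under D-ala. All L-ala totals were thus above all vehicle totals.

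Hmgcs1 (chromosome 13, 119690379 to 119708260, plus strand, with an antisense gene annotated across it) had 243, 233, 226, 236 and 202 FPKM under vehicle and 247, 246, 276, 297 and 298 FPKM under L-ala, so the lowest L-ala sample lay just above the highest vehicle sample. The rise was 0.25 (SE 0.08, adjusted p = 0.0415). Pmvk (chromosome 3, 89454541 to 89469013, plus strand) went from 11.96 to 15.35 FPKM under vehicle to 16.3 to 19.9 FPKM under L-ala without overlap (0.35, SE 0.10, adjusted p = 0.0362). Mvd, which makes isopentenyl diphosphate, also did not overlap, at 33.5 ± 1.24 against 39.4 ± 3.11 FPKM, but did not pass (0.23, SE 0.08, adjusted p = 0.0669); without D-ala replicate 2 its adjusted p was 0.0302. Non-overlap on the higher side was found for these 3 genes of the 30 (background 4.01%) and on the lower side for 0 (background 3.23%). Ebp (chromosome X, 8185329 to 8193512, minus strand) went from 67.9 ± 3.2 to 78.2 ± 6.38 FPKM (0.20, SE 0.06, adjusted p = 0.0490), with L-ala replicate 2 inside the vehicle range.

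These rises under L-ala were near the threshold. The calls of Hmgcs1 and Ebp were lost without any 1 of the 5 vehicle samples, and that of Pmvk without vehicle replicate 2, 3, 4 or 5; leaving out L-ala replicate 3 or 4 ended all 3, and L-ala replicate 1 ended Pmvk and Ebp. D-ala samples enter only through the shared spread, and leaving out D-ala replicate 1 or 3 ended the calls of Hmgcs1 and Ebp, and D-ala replicate 2, 4 or 5 that of Ebp. Adjusted p then ran from 0.0508 to 0.110 for Hmgcs1, 0.0525 to 0.103 for Pmvk and 0.0518 to 0.133 for Ebp. After quantile normalization the difference of Hmgcs1 was 0.05 (adjusted p = 0.702), that of Ebp 0.07 (adjusted p = 0.409) and that of Pmvk 0.32 (adjusted p = 0.0660). With each library's trend with gene length removed, Pmvk was at 0.23 (adjusted p = 0.162) and Ebp at 0.14 (adjusted p = 0.111). Of the neutrophil markers 2 were tested and both rose under L-ala, and the 5 in the table summed to 13.1 to 34.98 FPKM, against 0.676 to 7.72 under vehicle. The 6 red cell markers summed to 269 to 752 FPKM, against 24.9 to 262, but 0 of the 5 tested passed limma's test (4 higher at an unadjusted p under 0.05). In the same libraries 4 of 10 proximal tubule markers rose. Over all genes tested 6.48% rose under L-ala. The part of these markers in the rises was not tested.

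Between the amino acids, Acly and Hsd17b7 were higher and Mvd was lower with D-ala than with L-ala, and 27 genes did not pass. This made 6.67% higher (background 7.01%) and 3.33% lower (background 6.66%). Acly had 38.6, 39.9, 32.8, 42.99 and 48.6 FPKM under L-ala, and only D-ala replicate 5 reached into that range (0.50, SE 0.12, adjusted p = 0.0134). Hsd17b7 had 5.41, 4.75, 5.40, 4.17 and 5.89 FPKM under L-ala, all below its D-ala samples (background for such non-overlap 5.08%), and differed by 0.47 (SE 0.09, adjusted p = 0.00533). The differences of both genes passed in all 25 alternative settings, with adjusted p up to 0.0364 for Acly and 0.0207 for Hsd17b7.

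Mvd (chromosome 8, 122433601 to 122443422, minus strand, overlapped on the other strand by Gm20388) had 38.6, 41.6, 36.7, 36.4 and 43.5 FPKM under L-ala and 35.4, 26.2, 34.99, 30.8 and 35.3 FPKM under D-ala, without overlap (background 4.02%). The difference was -0.27 (SE 0.08, adjusted p = 0.0304), lost on leaving out any of L-ala replicates 1 and 2 and D-ala replicates 2 and 4 (adjusted p 0.0535 to 0.0677). Stard4 differed by -0.02 between the amino acids, with a 95% interval of -0.30 to 0.25. Sqle was at 0.18 (adjusted p = 0.0610), Hmgcs1 at -0.17 (adjusted p = 0.146), Pmvk at -0.07 (adjusted p = 0.675) and Ebp at -0.01 (adjusted p = 0.903). The calls of these genes against vehicle under 1 amino acid alone therefore do not show a difference between the 2. Without D-ala replicate 5 Sqle passed (adjusted p = 0.0281), and without L-ala replicate 3 Insig2 did, on the lower side (adjusted p = 0.0328).

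Fasn and Scd1 were the most variable of the 30 genes among vehicle samples, and Fasn was highest in the 4 libraries with the highest fat marker levels on the mean log2 scale. By summed FPKM, vehicle replicate 1 is among the 4 highest (652 FPKM) and D-ala replicate 1 (568 FPKM) is not, and Fasn was at 7.27 FPKM in the former and 16.1 FPKM in the latter. Fasn, the fatty acid synthase, had 7.27, 7.30, 5.44, 21.3 and 9.41 FPKM under vehicle, 5.94, 9.57, 5.37, 6.68 and 9.21 under L-ala, and 16.1, 13.6, 13.8, 6.25 and 10.1 under D-ala. Its highest sample, vehicle replicate 4, had the highest fat marker level of its group, and the lowest D-ala sample, replicate 4, had the lowest mean log2 level of all 15; by summed FPKM vehicle replicate 2 was lower (325 against 329 FPKM). Fasn did not pass in any comparison (D-ala against vehicle 0.31, interval -0.36 to 0.97), and with the mean log2 marker level as a covariate that difference was -0.05. Scd1 had 252 FPKM in vehicle replicate 4 against 86.5 to 154 in the other vehicle samples, and ran from 86.7 to 145 FPKM under D-ala and from 58.3 to 119 under L-ala, passing nowhere. Its close relative Scd2 varied less, at 19.05 ± 2.09, 18.7 ± 1.72 and 18.6 ± 3.28 FPKM under vehicle, L-ala and D-ala. Reads that fit both could have been divided between them.

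**Figure D4:**
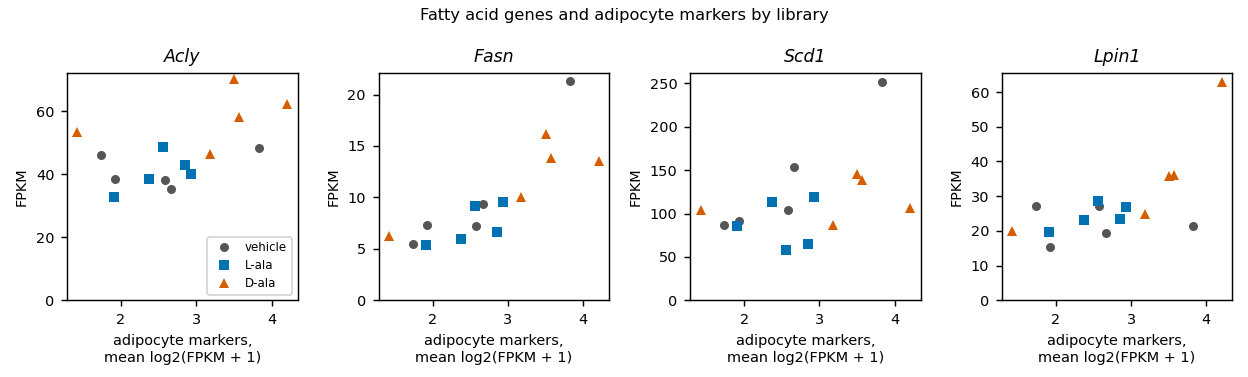
FPKM of Acly, Fasn, Scd1 and Lpin1 in each library against the mean log2(FPKM + 1) of 13 adipocyte markers. Fasn is highest, 13.6 to 21.3 FPKM, in the 4 libraries with the highest mean log2 marker level, and Acly is at 53.4 FPKM in the library with the lowest.

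Lpin1, a phosphatidate phosphatase that also serves as a transcriptional coactivator, had 27.3, 15.3, 27.2, 21.5 and 19.5 FPKM under vehicle and 35.9, 63.0, 36.1, 20.1 and 25.01 FPKM under D-ala. D-ala replicates 1 to 3 were above all vehicle samples and replicates 4 and 5 were among them. The difference of 0.60 (SE 0.25, adjusted p = 0.131) did not pass with all samples and passed without D-ala replicate 4 (0.78, adjusted p = 0.0407); with the adipocyte marker level as a covariate it was 0.40 (adjusted p = 0.264). Acaca (0.09, interval -0.18 to 0.36) and Elovl6, which lengthens saturated fatty acids (interval -0.28 to 0.28), did not pass under D-ala.

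Neighbouring lipid pathways were read from 6 further gene lists. The background for each count is the share of all genes tested: 6.53% higher and 4.92% lower under D-ala, 6.48% and 4.53% under L-ala, and 7.01% and 6.66% for D-ala against L-ala. Among 17 tested genes of triglyceride synthesis and storage, 3 rose (17.6%) and 0 fell under D-ala against vehicle (median 0.14), 1 rose (5.88%) and 0 fell under L-ala, and 2 were higher and 0 lower with D-ala than with L-ala. Dgat2, which adds the last fatty acid of a triglyceride, was at 116 ± 5.21 FPKM under vehicle, 114 ± 5.39 under L-ala and 157 ± 13.2 under D-ala, and all its D-ala samples were above all others (0.43, SE 0.06, adjusted p = 2.75e-04 against vehicle). Lpin3, a relative of Lpin1, rose from 4.63 ± 0.466 to 6.31 ± 0.225 FPKM (0.38, adjusted p = 0.00341). Both calls passed in all 25 alternative settings. The other, Plin3, a lipid droplet coat protein, passed in 12 of 25 (adjusted p = 0.0397, up to 0.118). It was lost on leaving out any of vehicle replicates 2 to 4, L-ala replicate 1 and D-ala replicates 1, 3, 4 and 5. With D-ala against L-ala it was at 0.13 (adjusted p = 0.111) and did not pass.

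Of 26 further genes of fatty acid synthesis and its carbon and NADPH supply, 2 rose (7.69%) and 0 fell under D-ala, 3 rose (11.5%) and 0 fell under L-ala, and 4 were higher and 3 lower with D-ala than with L-ala. Of the 2 under D-ala, Pgd passed in 15 of 25 alternative settings and Mlx in all 25, and of the 3 under L-ala, Tecr passed in 11. With D-ala against L-ala, Pgd was at 0.11 (adjusted p = 0.289) and Tecr at -0.02 (adjusted p = 0.818), and neither passed. Mlx, the partner of the glucose-responsive factor ChREBP, rose under D-ala from 38.9 ± 2.73 to 47.8 ± 1.57 FPKM (0.29, adjusted p = 0.00215). Among the 3 that rose under L-ala were Me1 and Idh1, which make cytosolic NADPH. Me1, the malic enzyme, was at 128 ± 6.14 FPKM under vehicle and 163 ± 8.74 under L-ala (0.34, adjusted p = 0.00298), and Idh1, the cytosolic isocitrate dehydrogenase, at 286 ± 20.9 and 348 ± 20.7 FPKM (0.29, adjusted p = 0.0131). Both calls ended after quantile normalization (adjusted p = 0.0582 for Me1 and 0.313 for Idh1). Both were lower with D-ala than with L-ala, by -0.23 for Me1 (adjusted p = 0.0145) and -0.32 for Idh1 (adjusted p = 0.00446); quantile normalization ended that of Me1 (adjusted p = 0.133).

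Of 17 further genes of cholesterol synthesis and uptake, 0 rose (2 at an unadjusted p under 0.05 in limma's test) and 1, Stard3, fell (5.88%) under D-ala, 3 rose (17.6%) and 1 fell (5.88%) under L-ala, and 0 were higher and 3 lower with D-ala than with L-ala. Stard3 passed in 14 of 25 alternative settings (adjusted p = 0.0383, up to 0.111) and was lost on leaving out any D-ala sample or any of vehicle replicates 1 to 4. Sc4mol (Msmo1), a sterol methyl oxidase, was at 12.7 ± 2.08 FPKM under vehicle, 16.5 ± 2.62 under L-ala and 11.95 ± 0.872 under D-ala, and differed between the amino acids by -0.43 (adjusted p = 0.0179), in all 25 settings. Its rise under L-ala (0.36, adjusted p = 0.0427) passed in 12 of 25 and was lost on leaving out any of vehicle replicates 2, 4 and 5, of L-ala replicates 1 and 4 or of D-ala replicates 1, 3 and 5 (adjusted p up to 0.117). Of the others called, Tmem97 passed in 20 settings under L-ala and Lipa in 16 for D-ala against L-ala. Npc2, which carries cholesterol out of lysosomes, rose under L-ala from 51.5 ± 1.76 to 62.2 ± 4.81 FPKM (0.27, adjusted p = 0.0105), a call that ended after quantile normalization (adjusted p = 0.0657). Scarb1, the lipoprotein receptor SR-BI, fell under L-ala from 6.61 ± 0.775 to 4.95 ± 0.261 FPKM (-0.35, adjusted p = 0.0130). With D-ala against L-ala, Scarb1 was at 0.16 (adjusted p = 0.164), Tmem97 at -0.18 (adjusted p = 0.104) and Stard3 at -0.10 (adjusted p = 0.244), and none passed. Of 12 genes of sterol sensing and SREBP processing 1 rose (8.33%) and 0 fell in each comparison: Ufd1l under D-ala, Vcp under L-ala and Erlin1 for D-ala against L-ala. The adjusted p of these calls was 0.0222 for Ufd1l, 0.00912 for Vcp and 0.0235 for Erlin1 (limma). With D-ala against L-ala, Ufd1l was at 0.10 (adjusted p = 0.287) and Vcp at -0.11 (adjusted p = 0.173), and neither passed. Their calls under one amino acid alone therefore do not show a difference between the 2. Ufd1l was lost on leaving out any of vehicle replicates 2 and 4 and D-ala replicates 2 and 5. Erlin1 was lost on leaving out any of L-ala replicates 1 and 4 and D-ala replicates 2 and 4, and Vcp after quantile normalization (adjusted p = 0.0525). Without vehicle replicate 1 Vcp also passed under D-ala (adjusted p = 0.0307). Of 11 tested genes of LXR and sterol efflux, 0 passed limma's test in any of the 3 comparisons; at an unadjusted p under 0.05 there were 1 higher and 1 lower under D-ala, 0 under L-ala, and 1 lower for D-ala against L-ala.

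On the side of fatty acid breakdown, 2 of 27 tested genes rose under D-ala (7.41%) and 0 fell (median 0.15), 1 rose (3.7%) and 0 fell under L-ala, and 2 were higher and 0 lower with D-ala than with L-ala. Cpt1a, which admits fatty acids to mitochondria, had 133 ± 4.09 FPKM under vehicle, 121 ± 17.7 under L-ala and 169 ± 22.3 under D-ala. It was higher with D-ala than with L-ala by 0.48 (adjusted p = 0.00433), a difference that passed in all 25 alternative settings. Its rise against vehicle was 0.34 (adjusted p = 0.0263) and was lost on leaving out any of replicates 1 and 2 of vehicle or of D-ala, and in 3 other settings (adjusted p up to 0.0953). Ppargc1a, a coactivator of oxidative metabolism, rose under D-ala from 11.8 ± 0.511 to 14.3 ± 1.35 FPKM (0.25, adjusted p = 0.0149). Under L-ala it was at 13.3 ± 0.405 FPKM and did not pass against vehicle (0.16, limma adjusted p = 0.0933). With D-ala against L-ala it was at 0.09 (adjusted p = 0.337), so its call does not show a difference between the 2.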

How the data were processed

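Kidney RNA of 15 samples in 3 labelled groups of 5 was studied. TRIzol extraction and a stranded TruSeq mRNA kit were used, per the labels' protocols. The submitters' processing notes name SAMtools 0.1.19, TopHat2 2.0.13, Bowtie2 2.2.3 and mm10, without their roles. No source used here gives the program and annotation behind the values per gene or its use of strand. Reads of overlapping genes (Fdft1 with Ctsb, Cyp51 with Akap9, Tm7sf2 with Vps51, Srebf1 with Rai1, Mvd with Gm20388, Fdps with Gm43738) could have been divided between them. The authors deposited FPKM for 23284 genes. The deposited log2 column (processed signal, per the file headers) lay within 0.00117 of gene-centred log2 FPKM for 10664 genes and was not used further. The deposited column headed count was treated as a score, since its numbers are whole counts times a factor per library, rounded again. Steps among low values gave that factor in 12 libraries, and with it 7.57 to 10.9 M reads; precision is otherwise the spread between libraries.

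A gene was tested where 5 or more libraries reached 1 FPKM, on log2(FPKM + 1), a scale that understates the change of low genes, with limma 3.58.1 in R 4.3.3: 1 mean per group over all 15 libraries, empirical Bayes with trend and robust to outlying variances. P-values were adjusted by Benjamini-Hochberg over all 11781 genes within each of 3 comparisons. The script was tested on simulated data with known changes given to the D-ala samples. Of 100 genes changed by 0.3 on the log2 scale in either direction, 47% passed against vehicle. Of 100 changed by 1, 97% passed, and unchanged genes gave 9 false calls. Named were the 30 genes and, of each further list, at most the 4 genes of smallest p per comparison. The 30 genes, the lists and the tests were chosen with earlier results of these data known. Alternatives were a pseudocount of 0.1, no filter, quantile normalization, median-of-ratios scaling, the count-headed column, only the 2 groups compared, the mean adipocyte marker level as a covariate, and each library left out. Chosen after seeing the data were leaving out vehicle replicate 4 and D-ala replicate 2 together (the highest fat markers of their groups), and removing each library's trend with gene length (scaled count per FPKM) or with GC content, known for 11664 of the tested genes. Gene positions come from GENCODE M21 (GRCm38, which mm10 also names).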

Additional observations from a re-analysis of the deposited data

Results flagged for a closer look

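In 90 sets of 5 samples (30 genes in 3 groups), 5 had 1 sample far from the rest by Dixon's test at the 95% level, about the 1 in 20 that chance gives. Ebp was at 62.3 FPKM in vehicle replicate 4, with the next vehicle sample at 68.7. Dhcr7, the last reductase of cholesterol synthesis, was at 7.32 FPKM in vehicle replicate 2, with the next at 6.10. Insig2 was at 20.9 FPKM in L-ala replicate 3, with the next at 25.6. Fasn was at 21.3 FPKM in vehicle replicate 4, with the next at 9.41. Scd2 was at 21.7 FPKM in L-ala replicate 2, with the next at 18.3.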

How the results depend on the processing

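Of 2250 recomputed differences of the 30 genes, 81 lost a call, 8 gained one, 0 reversed a call and 2161 did neither; the cause was not tested. Of 3525 for named genes of the further lists, 118 lost and 48 gained a call. Under D-ala against vehicle, the 3 genes that rose became 1 (Acly) with the adipocyte marker level as a covariate and 1 (Acly) without the 2 libraries of highest fat markers, where the 1 that fell became 0, and all genes called became 396 higher and 209 lower, against 769 and 580. Under L-ala, the 3 that rose became 0 without a filter, 0 after quantile normalization, 1 (Pmvk) with only the 2 groups, 0 without those 2 libraries and 1 (Hmgcs1) with the length trend removed; the 1 that fell became 0 with only the 2 groups and 0 without those 2 libraries. All genes called under L-ala, 763 higher and 534 lower, became 234 and 341 after quantile normalization, 330 and 273 with only the 2 groups, 165 and 127 without those 2 libraries, and 412 and 322 with the length trend removed. Between the amino acids, the 1 lower gene became 0 after quantile normalization, with only the 2 groups, with the covariate, without those 2 libraries and with the length trend removed, and of all genes 785 lower became 411 with only the 2 groups, 433 with the covariate and 520 without those 2 libraries. Leaving out 1 library gave 1 to 4 members higher and 1 lower under D-ala, 0 to 3 higher and 0 to 1 lower under L-ala, and 2 to 3 higher and 0 to 2 lower between the amino acids. For all genes it gave 502 to 888 higher and 310 to 704 lower under D-ala, 174 to 1529 and 147 to 1051 under L-ala, and 467 to 1261 and 303 to 1500 between them; the fewest came without vehicle replicate 4 (L-ala replicate 4 between the amino acids) and the most without L-ala replicate 5. No paired analysis was possible because the labels give no replicate numbers shared between groups.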
